A study of Mus musculus with 9 samples.

Results

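Retinal glia supply neighbouring cells with secreted growth factors. The genes described here are 9 members of that system, taken as a named list with no threshold on measured values, though chosen with earlier results of these data known: the ligand genes Fgf2, Bdnf, Gdnf, Cntf, Vegfa, Hbegf, Pdgfa and Pdgfb, and the receptor gene Ntrk2. Of these, 8 were among the 16367 genes measured in sorted retinal cells, and all 9 were among the 17035 genes measured in primary cultures. RNA sequencing covered 3 groups of 3 mouse libraries, all of WT genotype. In the ocular hypertension (OHT) group, silicone oil (1.2 µL) had been injected into the anterior chamber of both eyes, a treatment that raises eye pressure. Sham mice had a corneal incision and no oil. Each sorted library came from 4 pooled neural retinas, with cells captured on magnetic beads through GLAST, a glutamate transporter of Müller glia that astrocytes also carry. The third group, primary Müller glia cultures, was grown untreated in medium with serum from the retinas of C57BL/6J pups aged 8 to 10 days, and cells were passaged once confluent. The sources used here give no age, sex or duration of hypertension for the sorted mice, and no label says whether replicates came from separate mice or litters, so p-values measure only the spread between these libraries.

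As background, neurotrophic factors bind receptors on neurons and glia and promote survival and process growth, while vascular and mitogenic factors act on endothelial cells, pericytes and glial precursors. BDNF signals through TrkB, the product of Ntrk2. GDNF acts through GFRα1 and RET, CNTF through CNTFRα with LIFR and gp130, FGF2 through FGF receptors, VEGF-A through FLT1 and KDR, HB-EGF through EGFR and ERBB4, and the PDGF chains through PDGFRα and PDGFRβ. Müller glia, the radial glia that span the retina, are a known source of several of these ligands after injury and in low oxygen.

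Values are normalised read counts, that is reads per gene divided by 1 factor per library. Depth was between 37.8 and 44.5 M reads in sham, 47.1 and 53.6 M in OHT, and 66.3 and 76.7 M in culture (M, 1e6). Levels set across the sorted and cultured tables, which were normalised separately, are in ppm (reads per 1e6 reads of the library) and carry no test. The sorted libraries held cells besides Müller glia. Summed over 12 microglia and macrophage markers, sham libraries had 23884 to 37448 ppm and OHT libraries 27752 to 38773 ppm. The 14 rod photoreceptor markers summed to 2916, 27393 and 22164 ppm in sham replicates 1 to 3, and to 1005, 1191 and 3685 ppm in OHT replicates 1 to 3. Astrocyte markers (5 listed) summed to 18.3, 736 and 1321 ppm in sham and to 55.8, 35.2 and 103 ppm in OHT. Sham replicate 1 thus stood nearer to the OHT libraries than to the other sham libraries in both lists. In these bulk libraries, fewer cells of a type and less RNA per cell cannot be told apart. The 14 Müller glia markers were above 0 in every library, but in culture several were low: the mean for Rlbp1, the retinaldehyde-binding protein, was 2.24 ppm against 1192 ppm in sham, and that for Glul, glutamine synthetase, was 36.3 ppm against 1317 ppm. Markers of mural cells and fibroblasts summed to 16027 to 18985 ppm in culture and to 119 to 261 ppm in sham. In culture most of this sum was Acta2 (10370 ppm on average), Col1a1 (5717 ppm) and Col1a2 (1414 ppm). The mural markers Rgs5 (3.04 against 172 ppm in sham), Kcnj8 (0.0438 against 3.63) and Abcc9 (0.0238 against 3.30) were lower in culture. The rest of the list was higher there. The cultures are therefore called by their label here, with the measured marker levels in view.

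Promoters are shown for Bdnf, Vegfa and Ntrk2. Of the members listed in both tables, Bdnf had the largest fold difference between culture and sorted libraries. Vegfa and Ntrk2 are the ligand and receptor that were split alike within the sham group. RefSeq promoter windows (GRCm38.p6, not the mm39 build named for the authors' alignment) matched 7 of the 9 genes, with 16 windows in all and none for Hbegf or Pdgfb. Each line gives the 100 bases before a RefSeq transcription start, 5′ to 3′ on the gene's strand. Capitals mark TCACGTCA, a relative of the cAMP response element, in Bdnf and GGGCGG, the GC box letters bound by Sp1-type factors, in Vegfa.
Bdnf (chr2:109692336-109692435, plus strand): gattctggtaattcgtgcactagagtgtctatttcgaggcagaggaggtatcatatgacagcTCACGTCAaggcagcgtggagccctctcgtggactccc
Vegfa (chr17:46032378-46032477, minus strand): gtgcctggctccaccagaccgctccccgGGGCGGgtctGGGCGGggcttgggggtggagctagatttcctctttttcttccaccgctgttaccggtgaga
Ntrk2 (chr13:58806469-58806568, plus strand): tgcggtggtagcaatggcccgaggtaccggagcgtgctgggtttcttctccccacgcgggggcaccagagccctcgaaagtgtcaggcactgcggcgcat
No base of these stretches lies in an annotated exon of the same gene, and exons of other genes were not checked. In a search of both strands over 32851 promoter windows of the same length, TCACGTCA occurred in 0.441%, GGGCGG in 35.7%, the hypoxia-factor core ACGTG in 19.6%, the AP-1 letters TGACTCA or TGAGTCA in 5.20% and the full element TGACGTCA in 1.79%. The TCACGTCA of Bdnf overlaps an ACGTG match and lies in 1 of its 7 windows. The motif letters were chosen after the windows had been read, and counts per gene do not show which start was used, so these matches are descriptions only.

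In the comparison of OHT with sham, the question was which of these genes differed in glia under raised pressure. None of the 8 members in the sorted table passed the threshold with limma after Benjamini-Hochberg adjustment (0.05), and neither did any other of the 14403 genes tested (0% called). An unadjusted p below 0.05 was found for 1680 genes, of which 773 were higher and 907 lower in OHT, with no member among them. edgeR also called 0 genes, with 1575 under an unadjusted 0.05, and DESeq2 called 250, of which 54 were higher and 196 lower, again with no member. DESeq2 gave no adjusted p for 510 genes. Over all tested genes the median log2 difference was -0.12 on the deposited scale, -0.19 with TMM factors and 0.01 after quantile normalisation, and member differences are to be read against that shift. Differences are OHT minus sham on the log2(value + 1) scale, which understates changes of low genes.

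Fgf2 encodes basic fibroblast growth factor, a mitogen and survival factor for photoreceptors and glia. Its normalised counts were 75.4, 147 and 164 in sham and 20.7, 70.8 and 41.7 in OHT. All 3 OHT libraries lay below all 3 sham libraries, though sham replicate 1 and OHT replicate 2 were close. The means were 129 ± 46.8 in sham and 44.4 ± 25.1 in OHT (SD, n = 3 each), a log2 difference of -1.60 (SE 0.98, adjusted p = 0.524 by limma). Fgf2 was the only member whose groups did not overlap, in a table where 9.18% of tested genes were lower in this way and 9.26% were higher. After quantile normalisation the difference was -0.76 and the groups overlapped. Exons of Fgf2 overlap those of Nudt6 on the other strand in the GENCODE M21 annotation, so reads of both cannot be told apart if strand was not counted. The mean for Nudt6 was 8.86 ppm in sham, 7.19 ppm in OHT and 0.447 ppm in culture, against 3.17, 1.01 and 2.18 ppm for Fgf2. In the cultures Fgf2 had 191, 191 and 138 normalised counts.

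Bdnf encodes brain-derived neurotrophic factor, the main ligand of TrkB and a survival factor for retinal ganglion cells. Sham libraries held 31.0, 8.30 and 178 normalised counts, and OHT libraries 27.6, 77.4 and 91.4. The sham values alone spanned 21.4-fold and enclosed all OHT values. The log2 difference was 0.65 (SE 1.29, adjusted p = 0.841 by limma, n = 3 each), while the means were 72.4 ± 92.1 in sham and 65.5 ± 33.5 in OHT (SD), so the mean of logs and the mean of counts differed in sign. Without sham replicate 2 the log2 difference was -0.35, edgeR gave -0.22 and DESeq2 -0.14. No direction for Bdnf under OHT was therefore measured. The cultures differed from both: their normalised counts were 7797, 6809 and 7942, and Bdnf made up 94.7 ± 7.90 ppm of their reads against 1.73 ± 2.14 ppm in sham and 1.53 ± 1.02 ppm in OHT (SD, n = 3 each). The culture mean was 54.8-fold the sham mean and 61.9-fold the OHT mean, with every culture above every sorted library.

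Gdnf, the gene of glial cell line-derived neurotrophic factor, a ligand of the RET receptor, was listed only in the culture table. The sorted table holds genes with at least 5 reads over its 6 libraries, and Gdnf was not among them. Cultures held 215, 183 and 175 normalised counts, or 2.41 ± 0.180 ppm (SD, n = 3). The 3 cultures lay close together.

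Cntf encodes ciliary neurotrophic factor, a cytosolic cytokine of glia that activates STAT3 in retinal cells. It was near the floor of detection in most libraries, with 0, 1 and 6 reads in sham and 82, 6 and 13 in OHT. The corresponding normalised counts were 0, 0.922 and 5.74 in sham and 113, 4.94 and 10.4 in OHT. One library, OHT replicate 1, stood far above the rest, and OHT replicate 2 lay below sham replicate 3. The log2 difference was 3.07 (SE 1.78, adjusted p = 0.505 by limma, n = 3 each), and a pseudocount of 10 lowered it to 1.48, while leaving out single libraries gave 1.81 to 3.94. Cntf shares exon sequence with Zfp91, a gene on the same strand, so its counts are uncertain. Zfp91 was also highest in OHT replicate 1 (3297 normalised counts), and the part of shared reads in the Cntf values was not tested. Cultures held 13.7, 7.25 and 6.04 normalised counts of Cntf, within the range of the sorted libraries.

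Vegfa encodes the main growth and permeability factor for blood vessels, whose transcription is raised by hypoxia-inducible factors. Sham libraries held 16.5, 403 and 404 normalised counts, and OHT libraries 26.3, 85.6 and 20.03. In normalised counts, sham replicates 2 and 3 were above every OHT library, whereas sham replicate 1 was below them all. In ppm, sham replicate 1 (0.423 ppm) lay just above OHT replicate 1 (0.399 ppm). The means were 274 ± 223 and 44.0 ± 36.2 (SD, n = 3 each), with a log2 difference of -1.95 (SE 1.33, adjusted p = 0.556 by limma). Without sham replicate 1 the difference was -3.46, and over the other omissions it came no nearer to 0 than -1.20. The libraries with 736 and 1321 ppm of astrocyte markers were the 2 with high Vegfa, and they also had the most rod markers. The part of cell makeup in this difference was not tested. The cultures held 70.9, 69.4 and 77.6 normalised counts, or 0.916 ± 0.0766 ppm, close to the OHT mean of 0.957 ± 0.855 ppm and below the sham mean of 6.72 ± 5.47 ppm (SD, n = 3 each).

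Hbegf encodes heparin-binding EGF-like growth factor, a membrane-anchored EGFR ligand released by metalloproteases and a known mitogen for Müller glia. Normalised counts were 624, 748 and 376 in sham and 1787, 265 and 578 in OHT. The OHT libraries held both the highest and the lowest value, so the groups overlapped in full. The means were 583 ± 189 and 876 ± 804 (SD, n = 3 each), and the log2 difference was 0.21 (SE 0.69, adjusted p = 0.903 by limma). It was -0.52 without OHT replicate 1 and -0.07 without sham replicate 3, so its sign rested on single libraries. Cultures held 8382, 7215 and 7279 normalised counts, and their mean of 96.0 ± 5.04 ppm was 6.57-fold the sham mean of 14.6 ± 5.22 ppm and 5.94-fold the OHT mean of 16.2 ± 10.6 ppm (SD, n = 3 each).

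Pdgfa encodes the PDGF A chain, a ligand of PDGFRα that acts on astrocyte precursors in the developing retina. Its normalised counts were 635, 428 and 546 in sham and 1335, 802 and 582 in OHT. OHT replicates 1 and 2 lay above every sham library and OHT replicate 3 lay within the sham range. The log2 difference was 0.69 (SE 0.50, adjusted p = 0.578 by limma), with means of 537 ± 104 and 906 ± 387 (SD, n = 3 each). Leaving out single libraries gave 0.37 to 0.96, always higher in OHT. After quantile normalisation all 3 OHT libraries lay above all sham libraries. Cultures held 1864, 2025 and 2016 normalised counts. Means were 13.3 ppm in sham, 17.95 ppm in OHT and 24.8 ppm in culture, with every culture above every sorted library, though by less than for Bdnf and Hbegf.

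Pdgfb encodes the PDGF B chain, which recruits pericytes through PDGFRβ. Sham libraries held 1853, 960 and 1054 normalised counts, and OHT libraries 1347, 1801 and 1949. In normalised counts, sham replicate 1 lay between OHT replicates 2 and 3, and the other sham libraries lay below all OHT libraries. In ppm, OHT replicate 1 was the lowest sorted library (20.5 ppm), below sham replicates 2 and 3 (24.4 and 24.8 ppm). The log2 difference was 0.44 (SE 0.41, adjusted p = 0.660 by limma), with means of 1289 ± 491 and 1699 ± 314 (SD, n = 3 each). Over the omissions of single libraries it was 0.26 to 0.74. In contrast to Bdnf and Hbegf, the level was low in culture: 98.2, 83.9 and 72.5 normalised counts, or 1.07 ± 0.127 ppm, against 32.2 ± 13.2 ppm in sham and 37.6 ± 15.8 ppm in OHT (SD, n = 3 each). The sham mean was 30.2-fold and the OHT mean 35.3-fold the culture mean. Microglia and macrophage markers differed the same way, with 92.8 to 144 ppm in culture, and their part in the Pdgfb difference was not tested.

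Ntrk2 encodes TrkB, the receptor for BDNF, in a full-length kinase form and a truncated form known from glia, which counts per gene do not separate. Normalised counts were 61.0, 5271 and 4361 in sham and 52.5, 375 and 284 in OHT. As for Vegfa, sham replicates 2 and 3 were far above all OHT libraries while sham replicate 1 was low, here between OHT replicate 1 and the other OHT libraries. The sham values spanned 86.5-fold, and the means were 3231 ± 2783 in sham and 237 ± 166 in OHT (SD, n = 3 each). The log2 difference was -2.65 (SE 1.44, adjusted p = 0.487 by limma), and it was -4.74 (adjusted p = 0.118 by limma) without sham replicate 1 and no nearer to 0 than -1.54 over the other omissions. The library with low Ntrk2 in sham had 18.3 ppm of astrocyte markers and 2916 ppm of rod markers, the lowest of its group in both, and the part of cell makeup in the Ntrk2 difference was not tested. Pax2, the defining transcription factor of retinal astrocytes, was at 0 in sham replicate 1, OHT replicate 1 and OHT replicate 2. The 14 Müller glia markers summed to 15159, 24216 and 69727 ppm in sham and to 101006, 98781 and 20337 ppm in OHT. Without Apoe, left out after the data were seen, they summed to 3895, 9374 and 4141 ppm in sham and to 2113, 2063 and 4537 ppm in OHT. Cultures held 348, 309 and 439 normalised counts, or 4.61 ± 0.935 ppm, near the OHT mean of 5.60 ± 4.19 ppm and below the sham mean of 79.3 ± 69.2 ppm (SD, n = 3 each).

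**Figure D1:**
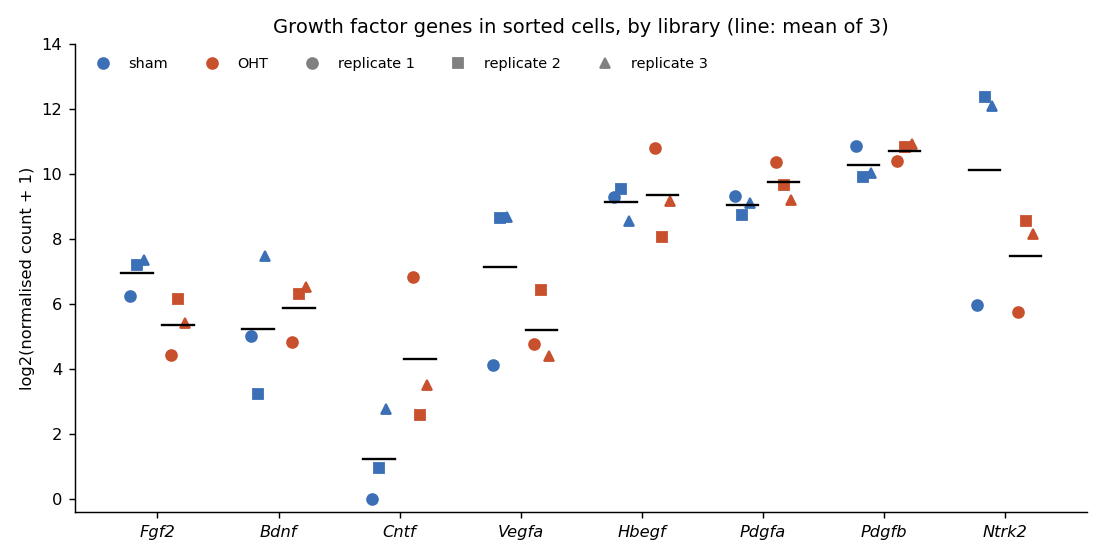
Each point is log2(normalised count + 1) of a member in 1 sorted library, with colour for sham or OHT, shape for the replicate and a line at the mean of 3. The sham counts of Vegfa, Bdnf and Ntrk2 span 24.4-fold, 21.4-fold and 86.5-fold, and only for Fgf2 do all OHT points lie below all sham points.

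**Figure D2:**
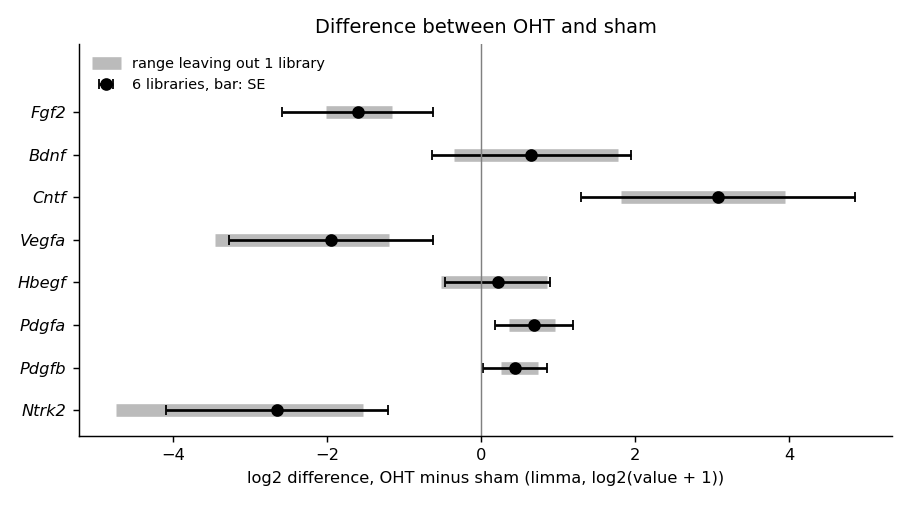
Points are the limma log2 difference of OHT minus sham for each member, bars its SE, and grey bands the range when single libraries are left out. The ranges of Bdnf (-0.35 to 1.78) and Hbegf (-0.52 to 0.86) include 0, while those of Fgf2, Vegfa and Ntrk2 lie below 0 and those of Cntf, Pdgfa and Pdgfb above it.

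**Figure D3:**
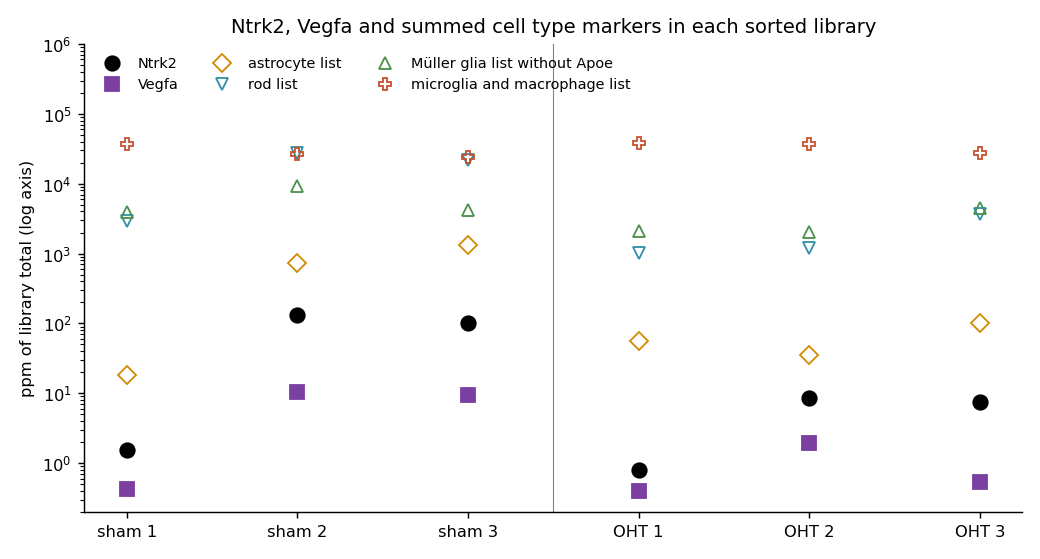
Filled symbols are Ntrk2 and Vegfa and open symbols the summed markers of astrocytes, rods, Müller glia without Apoe, and microglia with macrophages, in ppm on a log axis, for each sorted library. Sham replicates 2 and 3, with 736 and 1321 ppm of astrocyte markers, hold the highest Ntrk2 (134 and 102 ppm) and Vegfa (10.2 and 9.49 ppm).

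Levels of different genes were compared per kb of the longest annotated transcript. On this length Pdgfb, in sham, stood highest at 10.9 ± 4.48 ppm per kb, followed by Ntrk2 at 9.07 ± 7.91, Pdgfa at 6.47 ± 1.32 and Hbegf at 5.05 ± 1.81 (SD, n = 3). Vegfa at 1.95 ± 1.58, Fgf2 at 0.530 ± 0.180, Bdnf at 0.405 ± 0.503 and Cntf at 0.0492 ppm per kb came below. No neighbours in this order differed by more than the sum of their SDs. In OHT the order opened with Pdgfb (12.8 ± 5.37 ppm per kb), Pdgfa (8.72 ± 1.19) and Hbegf (5.59 ± 3.67), 3 neighbours that did not differ by more than the sum of their SDs. Ntrk2 stood among the scarce ligands, at 0.640 ppm per kb beside Cntf (0.655), Bdnf (0.359), Vegfa (0.277) and Fgf2 (0.169). In culture the order was another one, with Hbegf at 33.2 ± 1.74, Bdnf at 22.2 ± 1.85 and Pdgfa at 12.1 ± 0.943 ppm per kb (SD, n = 3), each separated from the next by more than the sum of their SDs. The other members were under 1 ppm per kb in culture on this length, with Gdnf at 0.655, Ntrk2 at 0.528, Fgf2 at 0.365, Pdgfb at 0.362, Vegfa at 0.265 and Cntf at 0.105 ppm per kb. Vegfa and Cntf were each set apart from their neighbours by more than the sum of the SDs, while Gdnf, Ntrk2, Fgf2 and Pdgfb were each not set apart from the next of these 4. The order depended on the length used. With the median transcript length, Ntrk2 (27.5 ppm per kb) stood above Pdgfb (22.9) in sham, and Fgf2 (6.27) and Vegfa (7.69) above Hbegf (6.15). With that length the culture values were 4.31 ppm per kb for Fgf2, 1.60 for Ntrk2 and 1.05 for Vegfa, and Hbegf (40.4), Bdnf (24.3) and Pdgfa (19.3) kept the top of the order. In ppm of the library, Bdnf, Hbegf and Pdgfa were higher in every culture than in every sorted library, and Pdgfb was lower. Serum, passage and sorting differ together between the tables and cannot be told apart.

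**Figure D4:**
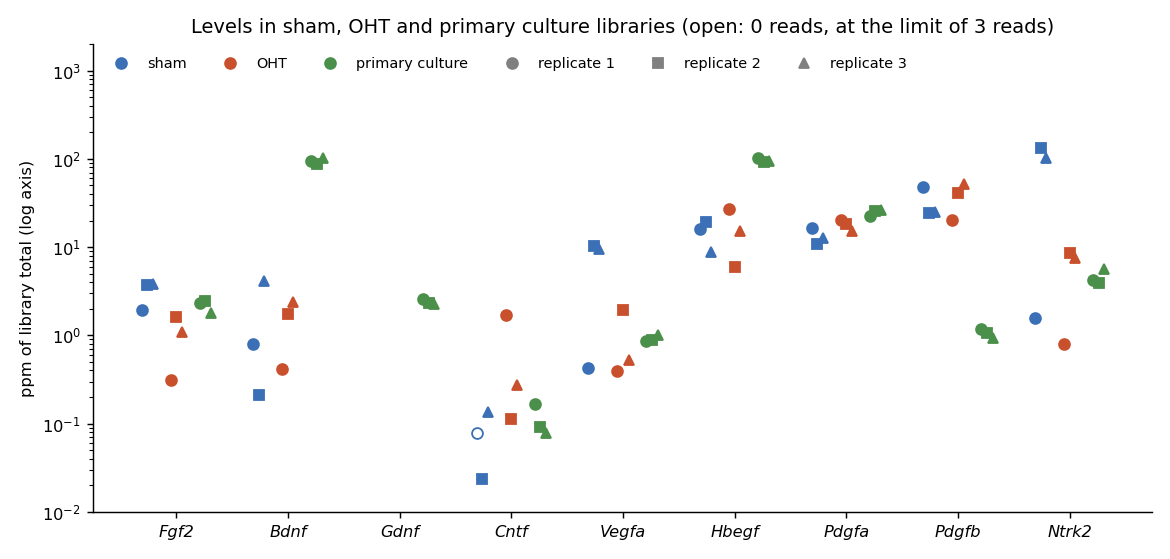
Each point is the level of a member in ppm, on a log axis, in 1 sham, OHT or culture library, and an open point marks 0 reads, drawn at the limit of 3 reads. Bdnf and Hbegf are highest in the cultures (94.7 and 96.0 ppm on average) and Pdgfb lowest there (1.07 ppm), and Gdnf has values in culture only.

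Across the 6 sorted libraries the members did not share 1 profile. Likeness was measured as the root mean square (RMS) difference between gene-centred log2 values. The nearest member pair was Pdgfa and Pdgfb (0.551), then Hbegf and Pdgfa (0.764), and Vegfa and Ntrk2 stood at 1.06, while Cntf and Ntrk2 were farthest apart at 3.93. Among 11511 genes, those nearest to Ntrk2 were Chdh (0.607) and Gramd2a (0.675), and those nearest to Vegfa were Bgn (0.553) and Igfbp5 (0.593), the latter a gene of the astrocyte marker list. Hbegf was nearest to Hspa12a (0.148) and Plcb4 (0.183), Pdgfa to Edf1 (0.0584) and Clic1 (0.0641), and Pdgfb to Dock2 (0.108) and Phka2 (0.109). A gene of small spread finds near neighbours more readily, so these distances are descriptions over 6 libraries.

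The families around the members were read from lists of ligands, receptors and other neurotrophic factors. Of 94 such genes, 84 were in the sorted table and 72 were tested. None was called by limma, against 0% of all genes, and 14 had an unadjusted p under 0.05. OHT lay below sham without overlap for 15 of the 72 (20.8%), against 9.18% of all tested genes, and above sham for 4 (5.56%), against 9.26%. Their median log2 difference was -0.66, against -0.12 for all tested genes. Markers of several cell types were lower as well. Lower without overlap were 4 of 7 tested retinal ganglion cell markers, 3 of 9 mural cell and fibroblast markers and 2 of 9 endothelial markers. So were 2 of 14 rod, 2 of 14 Müller glia (Slc6a11 and Sox9) and 2 of 8 bipolar markers. The medians, in this order, were -1.54, -2.75, -1.68, -2.41, -0.81 and -0.25. DESeq2 called 9 of the rod markers and both Slc6a11 and Sox9, among 250 of all 14403 tested genes. It also called the ganglion cell markers Slc17a6 and Thy1 and the mural cell markers Des and Rgs5, but no endothelial or bipolar marker. None of 5 astrocyte markers was lower without overlap, with a median of -1.85, though DESeq2 called 3 of them (Igfbp5, Pax2 and S100b). Retinal ganglion cell markers summed to 55.0 to 88.8 ppm in sham and 18.6 to 59.7 ppm in OHT, where Slc17a6 was at 0 in OHT replicate 2. Of 12 microglia and macrophage markers, 5 lay higher without overlap, with a median of 0.24. The part of cell makeup in the family counts was not tested. DESeq2 called 4 of the 72 family genes, Angpt2, Cntfr, Ret and Sorcs2, all lower in OHT, where it called 1.36% of all tested genes lower. Ligands and receptors both took part: 8 of 31 tested ligands (Nrtn, Clcf1, Fgf1, Fgf2, Pgf, Egf, Btc and Nrg2) and 6 of 27 tested receptors (Ngfr, Sorcs2, Ret, Cntfr, Fgfrl1 and Pdgfrb) were lower without overlap, with medians of -0.53 and -0.95. Among ligands Lif and Osm, and among receptors Nrp1, were higher without overlap. The 8 members alone had a median of 0.33, with 1 lower without overlap and none higher. With sham replicate 1 left out, Fgf2, Vegfa and Ntrk2 were lower and Pdgfa and Pdgfb higher without overlap in normalised counts. At this setting 17.8% of all tested genes were lower and 16.1% higher in this way. In ppm the Pdgfb groups still overlapped there, with 20.5 ppm in OHT replicate 1 and 24.4 and 24.8 ppm in sham replicates 2 and 3.

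Among the receptors that bind the members' products, none passed limma's threshold. Ngfr, the p75 neurotrophin receptor and partner of TrkB, had 819, 3326 and 1471 normalised counts in sham and 94.0, 758 and 463 in OHT (log2 difference -2.30, SE 0.78, adjusted p = 0.343 by limma). Sorcs2, a sorting receptor that binds proBDNF, had 126, 231 and 436 in sham and 29.0, 27.2 and 30.5 in OHT (-2.97, SE 0.92, adjusted p = 0.332 by limma, DESeq2 adjusted p = 0.0159). For both genes all OHT libraries lay below all sham libraries, whereas for Ntrk2 sham replicate 1 lay within the OHT range. Ret, the signalling receptor for GDNF, had 15.5, 235 and 201 normalised counts in sham and 0 in every OHT library. With OHT set at a floor of 3 reads per library, the sham mean was at least 60.8-fold higher, a mean carried by sham replicates 2 and 3. For Ret the log2 difference was -6.53 (SE 1.62), with adjusted p = 0.332 by limma, 0.422 by edgeR and 1.23e-04 by DESeq2. Its co-receptor Gfra1 showed no direction, with a log2 difference of 0.01 (adjusted p = 0.999 by limma) and -1.13 by DESeq2. Cntfr, the CNTF-binding subunit, had 361, 1108 and 523 in sham and 64.9, 187 and 51.3 in OHT (-2.78, SE 0.78, adjusted p = 0.332 by limma, DESeq2 adjusted p = 0.0187). The signalling subunits Lifr (-0.21, adjusted p = 0.866 by limma) and Il6st (-0.47, adjusted p = 0.588 by limma) overlapped between groups.

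Among FGF and VEGF receptors, log2 differences were -1.01 for Fgfr1 (adjusted p = 0.543 by limma), -0.65 for Fgfr2 (0.905), -0.71 for Flt1 (0.502) and -0.79 for Kdr (0.455). The groups of all 4 overlapped, and Fgfr2 changed sign with quantile normalisation, to 0.15. Nrp1, neuropilin-1, a VEGF-A co-receptor, went the other way, with 3777, 3258 and 6553 normalised counts in sham and 14576, 6683 and 13950 in OHT (1.36, SE 0.41, adjusted p = 0.332 by limma). Egfr, the HB-EGF receptor, differed by -2.78 (adjusted p = 0.421 by limma) with overlapping groups, and by -1.57 with edgeR, -1.53 with DESeq2, -1.83 without OHT replicate 1 and -4.22 without OHT replicate 3. Fgfr3 and Erbb4 were too scarce to be tested, with Erbb4 at 0 in all OHT libraries. Pdgfra had 0, 4380 and 5361 normalised counts in sham and 420, 0 and 170 in OHT (-2.78, SE 3.02, adjusted p = 0.705 by limma). Pdgfra thus had the split within sham of Ntrk2 and Vegfa, high in sham replicates 2 and 3 alone, and its difference rested on single libraries: it was -6.87 without sham replicate 1, -0.82 without sham replicate 2, -0.67 without sham replicate 3 and -0.095 without OHT replicate 2. For Pdgfrb the values were 351, 520 and 248 in sham and 69.1, 91.4 and 220 in OHT (-1.66, SE 0.76, adjusted p = 0.427 by limma). PDGFRβ is known from pericytes. Mural cell and fibroblast markers summed to 119 to 261 ppm in sham and 8.08 to 56.1 ppm in OHT, and endothelial markers to 42.2 to 156 and 19.4 to 38.6 ppm. Their part in these receptor values was not tested.

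Of the other factors, Fgf1, the acidic relative of Fgf2, had 270, 374 and 495 normalised counts in sham and 12.4, 109 and 101 in OHT (-2.79, SE 0.97, adjusted p = 0.343 by limma). Angpt2, an angiopoietin that loosens vessels, had 146, 292 and 329 in sham and 13.8, 0 and 14.4 in OHT (-5.31, SE 1.33, adjusted p = 0.332 by limma, DESeq2 adjusted p = 0.00529). Both were lower in every OHT library. Igf1, insulin-like growth factor 1, had 432, 418 and 4042 in sham and 8098, 4788 and 7839 in OHT (2.90, SE 0.73, adjusted p = 0.332 by limma), and without sham replicate 3 its difference was 3.98 with a limma adjusted p of 0.0282. Osm, oncostatin M, a cytokine of macrophages related to CNTF, had 3159, 2016 and 3305 in sham and 5013, 4032 and 3690 in OHT (0.61, SE 0.35, adjusted p = 0.502 by limma).

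Lists of signalling feedback, hypoxia and shedding genes had medians near 0. Among 14 tested feedback targets of growth factor signalling, such as the Sprouty genes, 1 was higher (Ier3) and 2 were lower without overlap (Spry1 and Fosl1), with a median log2 difference of -0.02. The hypoxia list held 15 genes, among them Hif1a and Epas1, which encode hypoxia-inducible factors themselves rather than their targets. None was higher and 2 were lower without overlap (Slc2a1 and Epas1), with a median of -0.14. The log2 difference of Vegfa was -1.95, and the part of hypoxia in it was not tested. Of 9 tested shedding and processing genes, which release HB-EGF and mature the neurotrophins, 2 were higher (Adam17 and Furin) and 1 was lower (Plat) without overlap, with a median of 0.08. Over all tested genes the median was -0.12, and 9.18% were lower and 9.26% higher without overlap. In the feedback, hypoxia and shedding lists these shares were 14.3%, 13.3% and 11.1% lower and 7.14%, 0% and 22.2% higher. In these 3 lists limma called 0 genes, with 1, 2 and 1 under an unadjusted 0.05. DESeq2 called Epas1 and Plat, both lower in OHT, where it called 1.36% of all tested genes lower.

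**Figure D5:**
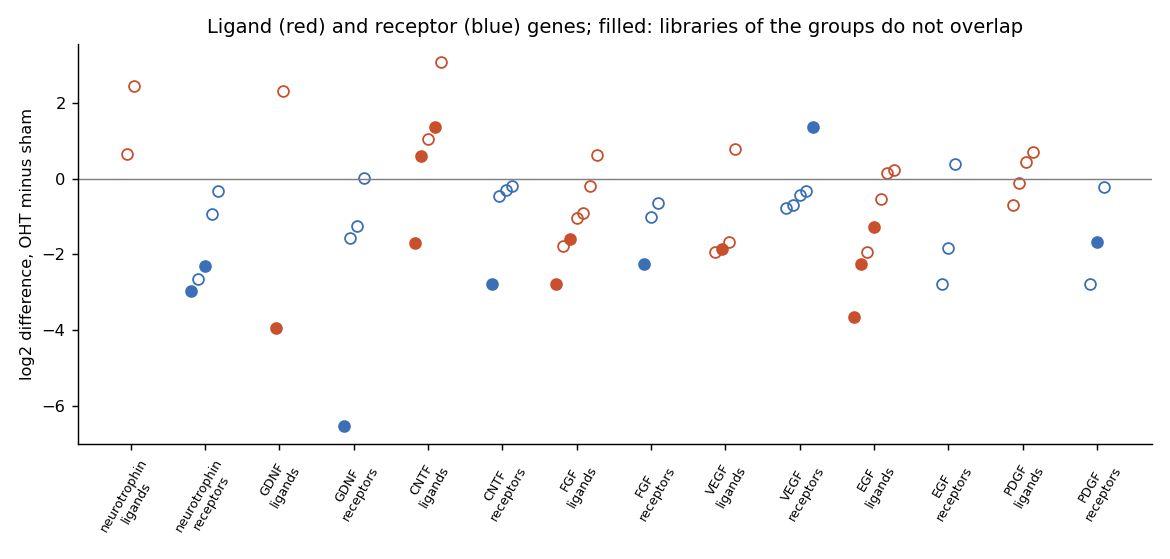
Each point is the limma log2 difference of OHT minus sham of a tested ligand (red) or receptor (blue), by family, filled where the libraries of the groups do not overlap. The filled points above 0 are Lif, Osm and Nrp1, and 8 ligands and 6 receptors are filled below 0.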

How the data were processed

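RNA from 3 sham, 3 OHT and 3 primary culture samples was amplified from low input and sequenced as paired ends, per the labels' protocols. The submitters' processing notes name bcl2fastq 2.20, Trim Galore 0.6.6, FastQC 0.11.9, STAR 2.7.1a and mm39. No counting program, strand setting, annotation or normalization tool is given in the sources used here. The deposited signal is a normalised count per gene and library, with 1 table for the 6 sorted libraries and another for the 3 cultures. The authors' values are whole multiples of 1 step per column, and dividing by it gave reads (tolerance 0.05 reads). The step of culture replicate 3 is near 1, so there this is no independent check. Gene lengths and overlaps came from GENCODE M21.

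The labels give each sample's group and replicate number. OHT was compared with sham by limma 3.58.1 (R 4.3.3, eBayes with trend) on log2(value + 1) for 14403 genes with a mean of at least 10, with Benjamini-Hochberg adjustment over all of them and a threshold of 0.05. A count of 0 allows 3 reads, for counting error only, since amplified reads are not independent molecules. Named genes were the members, their receptors, listed genes past the threshold, up to 5 ligands or receptors per direction without overlap and with a mean of at least 100, and the 2 nearest genes of each member with such a mean. Genes named within list counts were added after their values were seen. Members and lists were chosen with earlier results of these data known. Alternatives were other pseudocounts and filters, TMM, quantile normalisation, edgeR 4.0.16 and DESeq2 1.42.0 on recovered reads, a replicate block and leaving out each library. The limma script was tested on simulated data.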

Additional observations from a re-analysis of the deposited data

How the results depend on the processing

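Member differences between OHT and sham kept their direction and stayed short of the threshold in 112 of 117 alternative values, and the 5 exceptions were changes of sign in Bdnf (edgeR -0.22, DESeq2 -0.14, -0.35 to 1.78 leaving out single libraries) and Hbegf (-0.52 to 0.86 leaving out single libraries). For other named genes 266 of 283 values kept both. The threshold was passed in 5, by DESeq2 for Angpt2, Cntfr, Ret and Sorcs2 and without sham replicate 3 for Igf1. Signs changed for Fgfr2 (0.15 by quantile normalisation, 0.20 by edgeR, 0.25 by DESeq2, -2.43 to 0.56 leaving out single libraries), Gfra1 (-0.53 with a pseudocount of 10, -0.057 with TMM, -1.19 by edgeR, -1.13 by DESeq2, -2.34 to 1.20 leaving out single libraries) and Lifr (-0.69 to 0.20 leaving out single libraries). The cause was not tested. The count of genes called was 0, against 250 by DESeq2, 2 with a replicate block and 0 to 12 leaving out single libraries, where sham replicate 1 gave 12 and sham replicate 3 gave 7. The labels do not say whether replicate numbers pair the samples. Same-numbered sham and OHT libraries had correlations of 0.0776, -0.0246 and -0.0451 in their deviations from the group means. Only replicate 1 correlated best with its own number. With 3 libraries per group, which also differed in cell markers, these correlations cannot decide whether the samples were paired. Of 72 tested ligands, receptors and other factors, 15 were lower and 4 higher without overlap, against 9.18% and 9.26% of all tested genes. With a mean of at least 100 required, 8 of 45 were lower and 3 higher, against 8.17% and 11.2% of all genes. Leaving out single libraries, which leaves fewer to overlap, gave 16 to 27 lower and 4 to 9 higher of the 72. Over these omissions, 11.4% to 18.6% of all tested genes were lower and 10.8% to 18% higher. The direction of Pdgfra was kept in all alternatives run, though at -0.095 without OHT replicate 2. For levels per kb, the median transcript length in place of the longest moved 17 of 25 values by more than their SD. For levels in ppm, a total without the 20 highest genes moved 10 values by more than their SD. Depth limits Cntf, which had 0 to 6 reads in the sham libraries.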

Other observations

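The cultures expressed further growth factors that were scarce or not listed in the sorted libraries. Ntrk3, the receptor for neurotrophin-3, stood at 76.6 ± 3.03 ppm in culture against 1.78 ± 1.59 ppm in sham and 1.60 ± 2.66 ppm in OHT. Fgf7, keratinocyte growth factor, stood at 22.1 ± 3.54 ppm in culture and was at 0 in all sham libraries. Ereg, epiregulin, an EGFR ligand like HB-EGF, was listed in the culture table only, at 31.4 ± 4.16 ppm. Pdgfd, another ligand of PDGFRβ, stood at 84.0 ± 4.64 ppm in culture against 2.01 ± 1.75 ppm in sham, the opposite order to Pdgfb. Osm stood at 0.0990 ± 0.0524 ppm in culture, against 69.9 ± 16.2 ppm in sham and 88.4 ± 11.0 ppm in OHT. No test was made across the tables.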
